A study of Mus musculus with 12 samples.

Results

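The 10 genes followed here belong to the oxysterol and liver X receptor (LXR) pathway and were measured in liver macrophages of haemolytic and control mice: Ch25h, Cyp27a1, Abca1, Abcg1, Pltp, Apoe, Apoc1, Mylip, Srebf1 and Vldlr. They were taken by symbol from a table of 25700 genes, and all 10 were found and tested. Gene expression was measured by bulk RNA sequencing of non-parenchymal liver cells that had been enriched with magnetic beads for F4/80, a surface protein of mouse macrophages. There were 4 groups of 3 libraries, each from mice of 8 to 10 weeks that the labels call male. The groups were sph/sph mice given agonistic anti-CD40, WT (Spta wt/wt littermate) mice given the same antibody, sph/sph mice given saline, and WT mice given saline. The antibody was injected into the peritoneum at 20 mg/kg, and 30 h passed before the cells were taken. The sph allele is a whole-body mutation of alpha-spectrin that leaves red cells fragile, so every cell type of an sph/sph mouse carries it and lives with chronic haemolysis. The headers of the count table call the control genotype heterozygous, whereas the labels call it wild type, which is the name used here. By its title the series is about the effect of red cell uptake on the inflammatory state of liver macrophages.

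Oxysterols are cholesterol molecules that carry an added hydroxyl group. Ch25h and Cyp27a1 make 25-hydroxycholesterol and 27-hydroxycholesterol, which bind the nuclear receptors LXR alpha (Nr1h3) and LXR beta (Nr1h2). An LXR paired with an RXR receptor then switches on genes that carry cholesterol out of macrophages. These are the transporters Abca1 and Abcg1, the lipid transfer protein Pltp and the apolipoproteins Apoe and Apoc1, together with Mylip, a ubiquitin ligase that removes lipoprotein receptors, and Srebf1, the transcription factor that drives fatty acid synthesis. In the liver, Kupffer cells take up senescent red cells and lipoproteins and are rich in these efflux genes. Ch25h is also known as a gene that interferon and Toll-like receptor ligands induce in macrophages.

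Depth ran from 14991250 to 18984067 counts per library. The A library of each of the 4 groups had 0 counts of the Y-linked genes Ddx3y, Eif2s3y, Kdm5d and Uty, against 2436 to 4055 counts in each other library, which goes against the label "male" for 4 of the 12 libraries. Every group held 1 such library, and within each treatment the headers of the sph/sph and WT A libraries share an ID number whose meaning is not given. The C library of sph/sph anti-CD40 stood apart: across genes its Spearman correlation with the A and B libraries of its group was 0.884 and 0.906, whereas A and B correlated at 0.975. B cell markers (10 genes) summed to 4440 CPM there, against 379 and 92.7 CPM in A and B. Kupffer cell markers summed to 14176 CPM there, against 20632 and 28583 CPM in A and B. CPM are counts scaled to a fixed library size, here with edgeR's TMM factors. For the 10 genes, calls that change without these libraries are given; for the other genes of the pathway, lost calls are counted over 18 or 19 alternatives, which include these.

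An LXR element is a direct repeat of AGGTCA with 4 bases between the copies, and the promoter windows in hand reach from 250 bases before to 50 bases after a gene's start (RefSeq, GRCm38.p6). Of the 10 genes, 8 were matched to 13 windows in all, and Abcg1 and Apoc1 were not. A match on either strand with at most 3 mismatches to the 12 bases of the repeat was present in the window of Abca1 and in 1 of the 3 windows of Srebf1, and in 21.9% of all 32851 windows; 2 of 13 windows is no more than that share. The Abca1 match lies from 67 to 52 bases before the start (chr4:53159947-53159962) and the Srebf1 match from 182 to 167 bases before it (chr11:60210638-60210653). Both read as the repeat on the opposite strand, and 14 of their 16 bases are identical. The windows are shown 5′ to 3′ on the strand of the gene, with the match in capitals, because they hold the only matches of the repeat among the members.
Abca1, chr4:53159846-53160145, reverse strand: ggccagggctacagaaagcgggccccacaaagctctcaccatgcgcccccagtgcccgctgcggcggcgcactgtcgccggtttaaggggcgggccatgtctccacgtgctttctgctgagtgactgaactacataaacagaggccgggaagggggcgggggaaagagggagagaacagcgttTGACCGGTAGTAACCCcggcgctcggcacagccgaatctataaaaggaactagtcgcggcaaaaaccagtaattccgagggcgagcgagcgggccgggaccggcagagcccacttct
Srebf1, window 3, chr11:60210422-60210721, reverse strand: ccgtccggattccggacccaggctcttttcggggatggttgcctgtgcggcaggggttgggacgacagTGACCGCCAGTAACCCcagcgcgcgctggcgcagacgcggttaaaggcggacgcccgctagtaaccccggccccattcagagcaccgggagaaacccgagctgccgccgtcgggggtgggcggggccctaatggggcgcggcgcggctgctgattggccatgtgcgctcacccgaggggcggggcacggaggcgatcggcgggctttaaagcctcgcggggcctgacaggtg
The same repeat was not matched in the windows of Ch25h, Cyp27a1, Pltp, Apoe, Mylip and Vldlr. Ch25h, the gene that moved most, has this window, in which none of the searched elements was matched.
Ch25h, chr19:34475099-34475398, reverse strand: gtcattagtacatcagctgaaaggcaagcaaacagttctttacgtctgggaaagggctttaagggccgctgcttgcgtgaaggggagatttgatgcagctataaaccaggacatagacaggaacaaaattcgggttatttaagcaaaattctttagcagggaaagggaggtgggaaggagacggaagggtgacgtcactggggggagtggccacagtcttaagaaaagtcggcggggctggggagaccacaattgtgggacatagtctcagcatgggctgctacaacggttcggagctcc
Those other elements were the sterol element, written as TCAC and CCAC with 1 base between (1.24% of all windows), an NF-kB site written as GGGA and TTCC with 2 bases between (1.47%), and an interferon element written as a pair of GAAA with 2 bases between (3.44%). The interferon element was matched in 1 member, Vldlr, from 38 to 47 bases after the start of its first window.

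In WT mice given anti-CD40, Ch25h rose 1080-fold against saline (19.4% of all genes rose), and 6 of the 10 genes fell (19.7% of all genes fell), among them Pltp, Apoc1, Cyp27a1 and Apoe. In sph/sph mice none of the 10 passed the test after the same antibody. Under anti-CD40, Ch25h was lower in sph/sph than in WT libraries and 6 genes were higher, Pltp, Apoc1, Cyp27a1, Apoe, Abca1 and Vldlr. The calls of Abca1, Vldlr, Apoe and Cyp27a1 held in 4, 14, 16 and 18 of 19 alternatives, and the others in all 19. Under saline none of the 10 differed between the genotypes by this test. Calls rest on edgeR's quasi-likelihood test of 13844 genes in all 12 libraries, with p-values adjusted by the Benjamini-Hochberg method and a threshold of 0.05. In bulk RNA, fewer cells of a type and less RNA of a gene per cell cannot be told apart.

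Against these counts stands the share of all tested genes called. For anti-CD40 against saline in WT, 1 member rose where 19.4% of all genes did, and 6 fell where 19.7% did. For anti-CD40 against saline in sph/sph, 0 members rose where 0.578% of all genes did, and 0 fell where 0.202% did. For sph/sph against WT under anti-CD40, 6 members were higher where 11.5% of all genes were, and 1 was lower where 6.19% were. For sph/sph against WT under saline, 0 were higher where 1.6% of all genes were, and 0 were lower where 0.433% were. The interaction, which tests whether the response of sph/sph differs from that of WT, was positive for 3 members (3.18% of all genes) and negative for 1 (1.12%). The median log2 fold of the 10 genes was -0.94 for the sph/sph response and -2.40 for the WT response, against 0.04 and 0.05 over all genes. It was 1.48 for genotype under anti-CD40, against 0.08 over all genes, and -0.36 for genotype under saline, against 0.01.

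The counts of 0 are not a sign of equal levels. At an unadjusted p under 0.05, 9 of the 10 members passed for the sph/sph response, all but Vldlr, where 21% of all genes did, and 2 passed for genotype under saline, Pltp and Srebf1, where 13.1% did. DESeq2 called 1 member higher (Ch25h) and 4 lower (Cyp27a1, Pltp, Apoe and Apoc1) in the sph/sph response, and 1 higher (Srebf1) for genotype under saline, while limma-voom called 0 in each. Without the C library of sph/sph anti-CD40, edgeR called 5 members lower in the sph/sph response: Cyp27a1, Pltp, Apoe, Apoc1 and Mylip. That fit also called 1382 of all 14066 genes higher and 990 lower, against 80 and 28 with the library. The libraries of the compared groups did not overlap for 8 of 10 members in the WT response (57.3% of all genes), for 8 in the sph/sph response (21.8%), for 6 for genotype under anti-CD40 (28.4%) and for 5 for genotype under saline (31%). Without the 4 libraries that lacked Y-linked counts, which leaves 2 per group, the WT response gave 1 higher and 5 lower, genotype under anti-CD40 4 higher and 1 lower, and the interaction 1 higher, Pltp, and 0 lower.

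**Figure D1:**
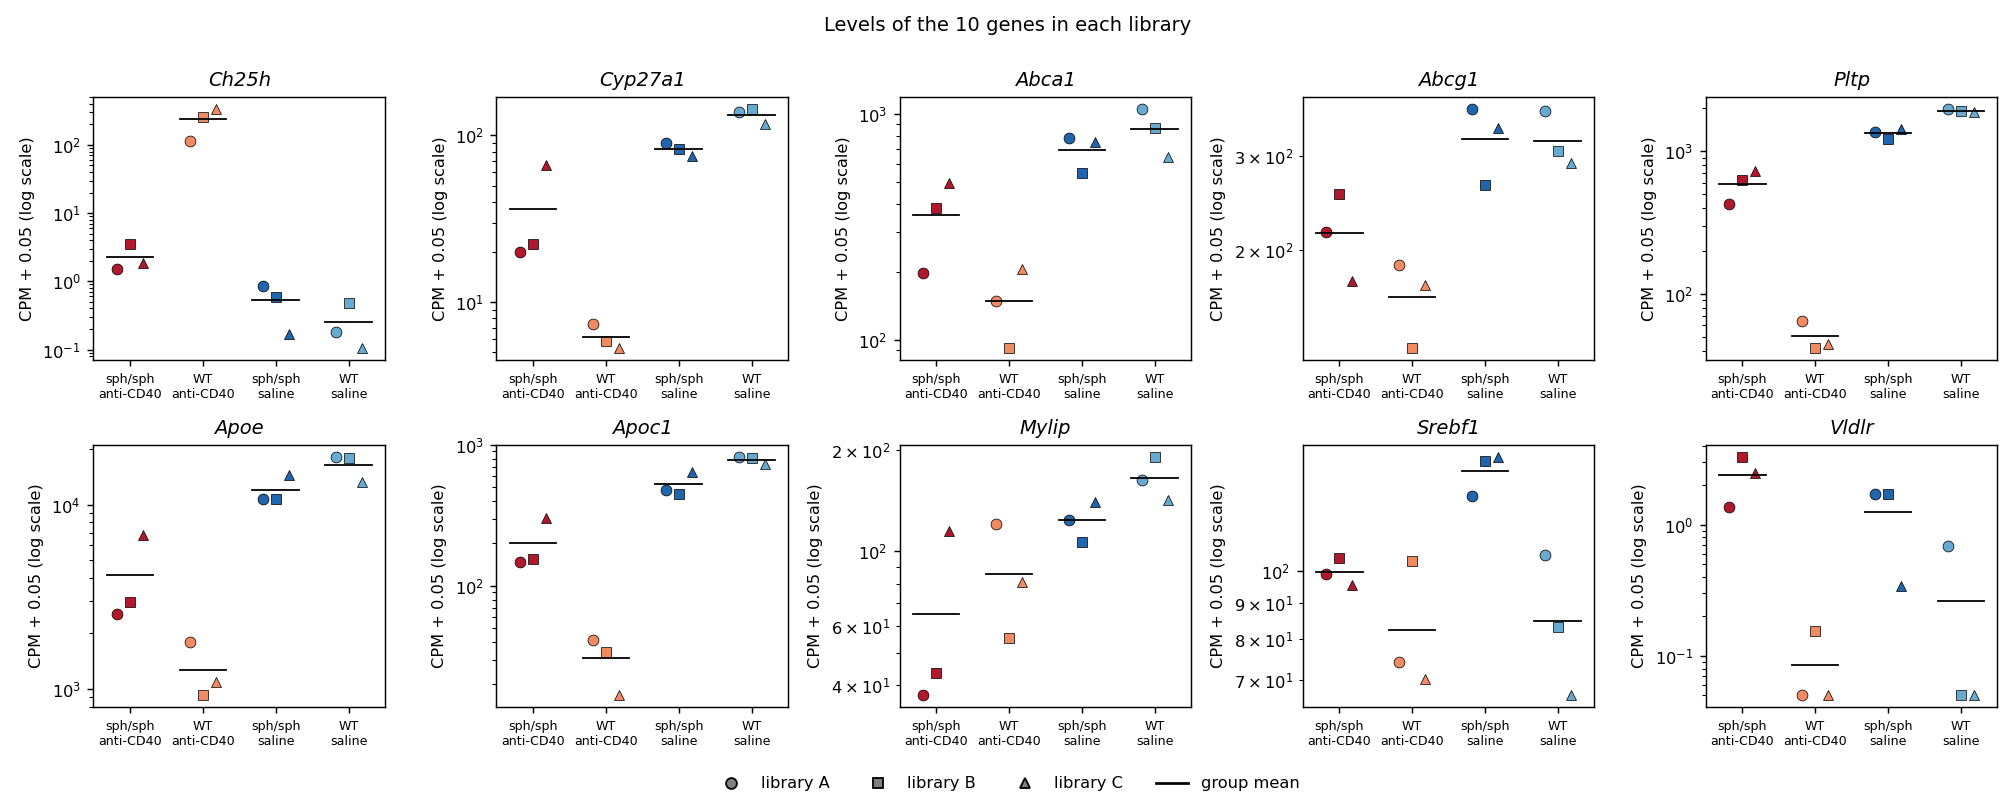
Level of each of the 10 genes in CPM plus 0.05 on a log axis, by group; symbols are the A, B and C libraries and lines are group means (n = 3). The WT anti-CD40 libraries are the highest of the 12 for Ch25h and the lowest for Cyp27a1, Pltp and Apoc1, while Srebf1 moved within a narrow range.

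Markers of the cells themselves also differed between groups, and not alike for all cell types. For the counts below, 19.4% of all genes rose and 19.7% fell in the WT response. In sph/sph against WT under anti-CD40, 11.5% were higher and 6.19% lower. The 10 Kupffer cell markers summed to between 14176 and 28583 CPM in sph/sph anti-CD40, to between 417 and 908 CPM in WT anti-CD40, to between 23056 and 31797 CPM in sph/sph saline and to between 19908 and 22449 CPM in WT saline, and none was at 0 in any library. Of the 10, 9 fell in the WT response and 9 were higher in sph/sph than in WT under anti-CD40. Their median log2 fold was -1.14 in the sph/sph response and -6.71 in the WT response. For genotype under saline their median was -0.39, although the sums were higher in sph/sph. Only Marco of the 10 was called there, higher in sph/sph (log2 fold 4.11, edgeR adjusted p = 0.00955), where 1.6% of all genes were higher. Adgre1, which encodes the F4/80 protein of the beads, had 1505 ± 635 CPM in sph/sph anti-CD40, 88.0 ± 73.6 in WT anti-CD40, 1741 ± 270 in sph/sph saline and 1778 ± 184 in WT saline (SD, n = 3 each). Monocyte markers summed to between 1376 and 3987 CPM in WT anti-CD40, against 357 to 628 CPM in WT saline, and 6 of 11 rose. Markers of T and NK cells summed to between 209 and 1577 CPM in WT anti-CD40, against 4.18 to 4.95 CPM in WT saline, and all 12 rose. Dendritic cell markers summed to between 500 and 1454 CPM in WT anti-CD40, against 147 to 164 CPM in WT saline, and 4 of 10 rose while 2 fell. B cell markers summed to between 182 and 836 CPM in WT anti-CD40, against 59.6 to 85.6 CPM in WT saline, and 5 of 10 rose. Neutrophil markers summed to between 211 and 653 CPM in WT anti-CD40, against 155 to 199 CPM in WT saline, and 5 of the 11 tested rose. Stellate cell markers summed to between 290 and 371 CPM in WT anti-CD40, against 443 to 1883 CPM in WT saline, and 5 of 12 fell. The sums of endothelial markers overlapped and 1 of 12 rose. In sph/sph anti-CD40 the sums were 552 to 2474 CPM for monocyte, 92.7 to 4440 CPM for B cell and 3.33 to 122 CPM for T and NK cell markers. Against WT anti-CD40, no monocyte or B cell marker was called, and 5 T and NK cell markers were lower. Dendritic cell markers had 1 higher and 2 lower, neutrophil markers 2 and 2, stellate cell markers 1 and 0, and endothelial markers 0 and 2.

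Several of the 10 genes are also active in other liver cells, Apoe, Apoc1 and Cyp27a1 in hepatocytes among them. The 18 hepatocyte markers summed to between 2668 and 5113 CPM in sph/sph anti-CD40 and to between 1411 and 4327 CPM in WT anti-CD40. Under saline they summed to between 2072 and 8743 CPM in sph/sph libraries and to between 2007 and 4770 CPM in WT libraries. These ranges overlap in each comparison, and in the WT response 1 of the 18 rose and 4 fell, where 19.4% and 19.7% of all genes did. The median log2 fold of the 18 was -1.46 in the WT response, -0.62 in the sph/sph response and 1.02 for genotype under anti-CD40. Over all genes these medians were 0.05, 0.04 and 0.08. Under anti-CD40, 1 of the 18 was higher and 0 were lower in sph/sph than in WT, where 11.5% and 6.19% of all genes were. The 14 erythroid markers were all higher in sph/sph than in WT libraries with either treatment, with sums of 4792 to 17392 CPM in sph/sph anti-CD40, 35.4 to 211 CPM in WT anti-CD40, 5812 to 9483 CPM in sph/sph saline and 74.7 to 333 CPM in WT saline. The part of these cell markers in the results for the 10 genes was not tested.

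**Figure D2:**
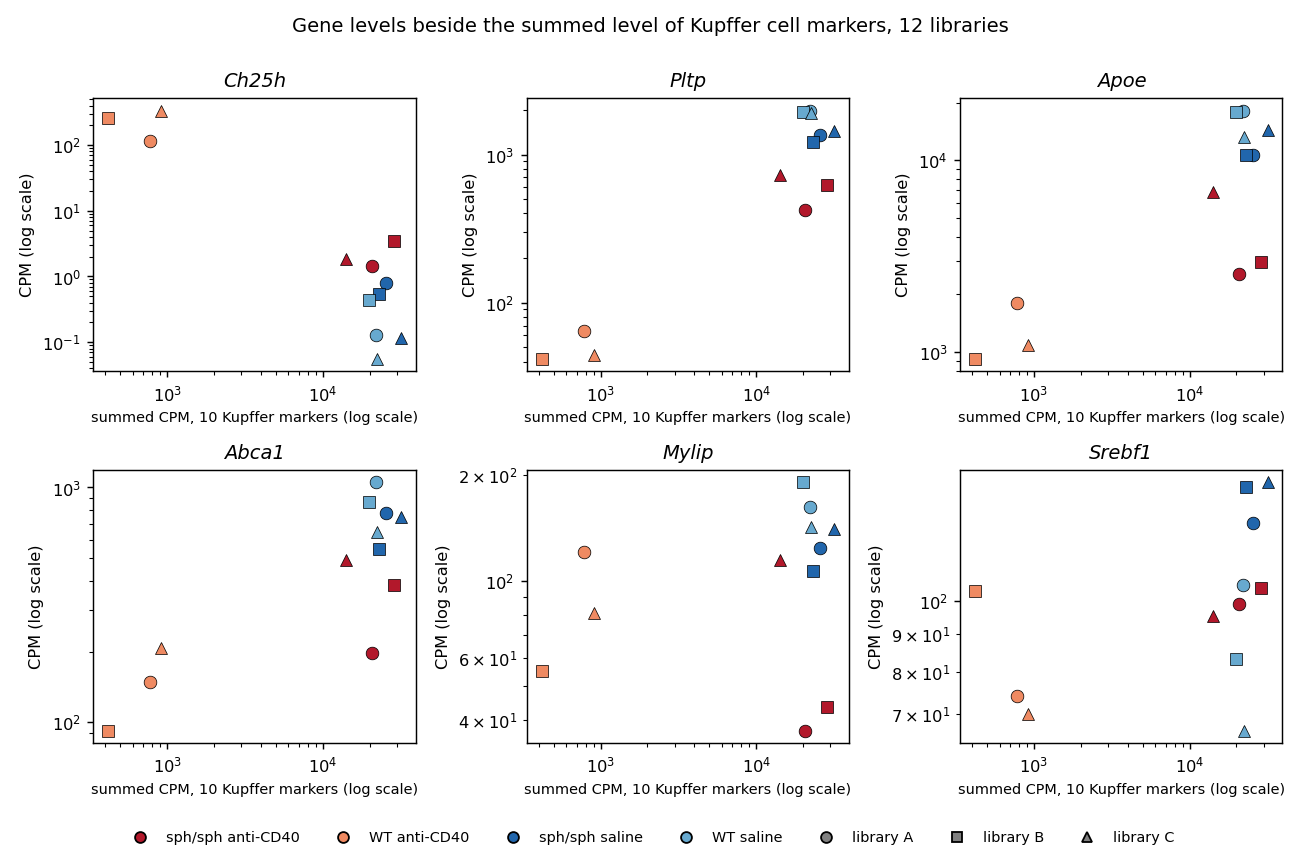
Level of 6 of the genes (CPM, log axis) beside the summed CPM of 10 Kupffer cell markers (log axis) in each of the 12 libraries, coloured by group, with symbols for the A, B and C libraries. The 3 WT anti-CD40 libraries lie alone at the low end of the marker sum, at 417 to 908 CPM. Among the other libraries, all at 14176 CPM and above, sph/sph anti-CD40 had lower Pltp and Apoe than the saline libraries. The median log2 fold of the 10 markers in the sph/sph response was -1.14, beside -1.18 for Pltp and -1.53 for Apoe. The part of the markers in this was not tested.

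Per kilobase of exon, Apoe led in all 4 groups, with 1928 ± 1118 CPM per kb in sph/sph anti-CD40, 596 ± 219 in WT anti-CD40, 5584 ± 1015 in sph/sph saline and 7682 ± 1300 in WT saline (SD, n = 3 each). Apoc1 and Pltp followed in every group but WT anti-CD40, where Ch25h stood second at 170 ± 80.6 CPM per kb. In WT saline Ch25h stood ninth of the 10 at 0.150 ± 0.147 CPM per kb, and Vldlr was last in every group, at 0.232 ± 0.0968 CPM per kb in sph/sph anti-CD40 and below that elsewhere. The makers of oxysterol thus changed places: Cyp27a1 had 2.83 ± 0.504 CPM per kb in WT anti-CD40 against 61.4 ± 6.32 in WT saline.

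Ch25h, cholesterol 25-hydroxylase, lies on the reverse strand (ENSMUSG00000050370, chr19:34473778-34475164, GRCm38, as for all genes here), and an exon of Gm26902 overlaps it on the other strand, so part of the Ch25h counts is uncertain if the counting ignored strand. Under anti-CD40 it had 1.45, 3.48 and 1.83 CPM in sph/sph libraries A, B and C, against 115, 258 and 335 CPM in the WT libraries. Under saline it had 0.798, 0.534 and 0.116 CPM in sph/sph libraries, against 0.129, 0.440 and 0.0554 CPM in the WT libraries. The WT anti-CD40 libraries are far above every other library, the sph/sph anti-CD40 libraries lie next and above all saline libraries, and the saline groups overlap. The saline levels rest on 12, 9 and 2 reads in sph/sph and on 2, 8 and 1 reads in WT libraries. Anti-CD40 raised Ch25h in WT by a log2 fold of 10.08 ± 0.80 (SE; edgeR adjusted p = 2.49e-05). In sph/sph the log2 fold was 2.22 ± 0.68, short of the threshold (edgeR adjusted p = 0.119). Under anti-CD40 sph/sph libraries were lower by a log2 fold of -6.72 ± 0.66 (edgeR adjusted p = 0.000172), and the responses differed by -7.86 ± 1.08 (edgeR adjusted p = 0.00347). Without the libraries lacking Y-linked counts the difference of responses was -7.19 (edgeR adjusted p = 0.0647).

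Its neighbour Lipa, the lysosomal lipase that frees cholesterol from taken-up lipoproteins (chr19:34492318-34527474, same strand), moved the other way. Lipa had 745 ± 183 CPM in sph/sph anti-CD40, 222 ± 32.2 in WT anti-CD40, 1453 ± 74.8 in sph/sph saline and 896 ± 216 in WT saline (SD, n = 3 each). It fell in the WT response by 2.01 on the log2 scale (edgeR adjusted p = 0.000233), while Ch25h rose.

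Cyp27a1, the mitochondrial sterol 27-hydroxylase (ENSMUSG00000026170, chr1:74713574-74737892, forward strand), ran opposite to Ch25h. With anti-CD40 it had 20.0, 22.4 and 66.8 CPM in sph/sph libraries A, B and C, against 7.38, 5.83 and 5.27 CPM in WT libraries. With saline it had 89.5, 82.7 and 75.5 CPM in sph/sph libraries, against 139, 144 and 118 CPM in WT libraries. No library of a group reached the range of any other group, so the order was WT saline, sph/sph saline, sph/sph anti-CD40 and WT anti-CD40. It fell in the WT response by 4.44 ± 0.44 on the log2 scale (edgeR adjusted p = 8.59e-05). The sph/sph response of -1.18 ± 0.39 did not pass (edgeR adjusted p = 0.135). Without the C library of sph/sph anti-CD40, the highest of its group, the response was -1.97 (edgeR adjusted p = 0.000469). Under anti-CD40 the level in sph/sph was higher than in WT by 2.57 ± 0.41 (edgeR adjusted p = 0.00247), which a fit of those 2 groups alone did not call (edgeR adjusted p = 0.0509). The responses differed by 3.26 ± 0.56 (edgeR adjusted p = 0.0110). Under saline the difference of genotypes, -0.69 ± 0.38, did not pass (edgeR adjusted p = 0.500), but it did in the fit of the saline groups alone (edgeR adjusted p = 0.0234) and without the C library of sph/sph anti-CD40 (edgeR adjusted p = 0.0282).

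Abca1, which loads cholesterol and phospholipid onto apolipoprotein A-I (ENSMUSG00000015243, chr4:53030787-53159895, reverse strand), fell in the WT response. The anti-CD40 level was 198, 383 and 493 CPM in sph/sph libraries A, B and C, against 148, 92.1 and 206 CPM in WT libraries. The saline level was 782, 546 and 751 CPM in sph/sph libraries, against 1052, 870 and 643 CPM in WT libraries. With either treatment the genotypes overlap, and within each genotype the treated libraries lie below all saline libraries. The WT response was a fall of 2.52 ± 0.39 on the log2 scale (edgeR adjusted p = 0.000902), and the sph/sph response of -0.95 ± 0.37 did not pass (edgeR adjusted p = 0.186). Under anti-CD40 sph/sph was higher by 1.27 ± 0.38 (edgeR adjusted p = 0.0425), a call that held in 4 of 19 alternatives, where the adjusted p ran from 0.0125 to 0.185. Among the fits that left out 1 library it held only without WT anti-CD40 C and without sph/sph anti-CD40 A. The difference of responses, 1.57 ± 0.53, did not pass (edgeR adjusted p = 0.133).

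Abcg1, which passes cholesterol to high-density lipoprotein (ENSMUSG00000024030, chr17:31057675-31117988, forward strand), moved least of the efflux genes. Under anti-CD40 it had 216, 255 and 176 CPM in sph/sph libraries, against 188, 131 and 172 CPM in WT libraries. After saline it had 368, 265 and 338 CPM in sph/sph libraries, against 365, 307 and 291 CPM in WT libraries. The genotypes overlap with either treatment, and the treated libraries lie below the saline libraries of their genotype. The WT response was a fall of 0.97 ± 0.20 (edgeR adjusted p = 0.00457), which was not called without the libraries lacking Y-linked counts (edgeR adjusted p = 0.0510). The sph/sph response was -0.58 ± 0.20 (edgeR adjusted p = 0.149), and neither the genotype under anti-CD40 (0.40 ± 0.20, edgeR adjusted p = 0.210) nor the difference of responses (0.39 ± 0.29, edgeR adjusted p = 0.520) passed.

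Pltp, a secreted protein that moves phospholipid between lipoproteins (ENSMUSG00000017754, chr2:164839518-164857711, reverse strand), gave the most stable difference between the genotypes. With anti-CD40 it had 424, 625 and 724 CPM in sph/sph libraries A, B and C, against 64.5, 41.6 and 44.3 CPM in WT libraries. Under saline it had 1363, 1221 and 1442 CPM in sph/sph libraries, against 1979, 1926 and 1892 CPM in WT libraries. No groups overlap, and the order is that of Cyp27a1. The WT response was a fall of 5.27 ± 0.28 on the log2 scale (edgeR adjusted p = 2.49e-06). In sph/sph the response of -1.18 ± 0.24 lay just outside the threshold (edgeR adjusted p = 0.0519), and it was called without WT anti-CD40 A (edgeR adjusted p = 0.0310) and without sph/sph anti-CD40 C (edgeR adjusted p = 0.00817). Under anti-CD40 sph/sph was higher by 3.56 ± 0.26 (edgeR adjusted p = 3.7e-05), and the responses differed by 4.09 ± 0.35 (edgeR adjusted p = 0.000211). Of the members, Pltp alone kept its call for the difference of responses in all 18 alternatives. Under saline the difference of genotypes was -0.53 ± 0.24 (edgeR adjusted p = 0.374).

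Exons of Ctsa, a lysosomal protease, overlap Pltp on the other strand, and whether the counting used strand is not given in the sources used here. Ctsa had 892 ± 131 CPM in sph/sph anti-CD40, 529 ± 226 in WT anti-CD40, 1317 ± 217 in sph/sph saline and 1172 ± 63.1 in WT saline (SD, n = 3 each). It fell by 1.15 ± 0.28 in the WT response (edgeR adjusted p = 0.00945), a smaller fall than that of Pltp.

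Apoe (ENSMUSG00000002985, chr7:19696109-19699188), the apolipoprotein that macrophages secrete with cholesterol, and Apoc1 (ENSMUSG00000040564, chr7:19689481-19692660), an apolipoprotein that slows lipid clearance, sit side by side on the reverse strand. Apoe had 2546, 2949 and 6874 CPM in sph/sph anti-CD40 libraries A, B and C, against 1805, 921 and 1097 CPM in WT anti-CD40 libraries. With saline it had 10660, 10713 and 14444 CPM in sph/sph libraries, against 18190, 17862 and 13219 CPM in WT libraries. The saline groups overlap, whereas under anti-CD40 every sph/sph library lies above every WT library. Apoc1 had 147, 154 and 305 CPM in sph/sph anti-CD40 libraries, against 41.6, 34.1 and 16.6 CPM in WT anti-CD40 libraries. The saline level was 480, 449 and 643 CPM in sph/sph libraries, against 826, 808 and 726 CPM in WT libraries. Its 4 groups do not overlap at all, and sph/sph anti-CD40 C is the highest treated library for both genes.

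In the WT response Apoe fell by 3.69 ± 0.45 on the log2 scale (edgeR adjusted p = 0.000247) and Apoc1 by 4.68 ± 0.42 (edgeR adjusted p = 4.2e-05). In sph/sph the responses were -1.53 ± 0.42 for Apoe (edgeR adjusted p = 0.0972) and -1.37 ± 0.36 for Apoc1 (edgeR adjusted p = 0.0917). Without sph/sph anti-CD40 C they were -2.13 and -1.81 and were called (edgeR adjusted p = 0.00586 and 0.00870). Under anti-CD40 sph/sph was higher by 1.69 ± 0.42 for Apoe (edgeR adjusted p = 0.0203) and by 2.72 ± 0.38 for Apoc1 (edgeR adjusted p = 0.00118). The Apoe call was lost without WT anti-CD40 B (edgeR adjusted p = 0.0750), without WT anti-CD40 C (edgeR adjusted p = 0.0769) and in a fit of the treated groups alone (edgeR adjusted p = 0.134). The difference of responses passed for Apoc1, at 3.30 ± 0.52 (edgeR adjusted p = 0.00700), but not for Apoe, at 2.15 ± 0.58 (edgeR adjusted p = 0.0695); whether Apoe and Apoc1 differ in this was not tested.

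The genes beside Apoe and Apoc1 were not called lower in the WT response, which does not show that their levels were kept. Tomm40, a mitochondrial import channel just upstream of Apoe, rose in the WT response by 1.26 ± 0.30 (edgeR adjusted p = 0.00806). Apoc4 (-1.69 ± 0.73, edgeR adjusted p = 0.0889), Apoc2 (-0.42 ± 0.50, edgeR adjusted p = 0.528) and Clptm1 (0.34 ± 0.18, edgeR adjusted p = 0.149), which lie downstream of Apoc1 on the same strand, did not pass. Apoc4 and Apoc2 were low, with group means of 4.18 to 15.1 CPM and 12.3 to 16.4 CPM.

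Mylip, the ligase that marks lipoprotein receptors for destruction (ENSMUSG00000038175, chr13:45389742-45412022, forward strand), showed no call in any comparison. The anti-CD40 level was 37.2, 43.4 and 115 CPM in sph/sph libraries A, B and C, against 120, 55.3 and 80.9 CPM in WT libraries. After saline it had 124, 107 and 140 CPM in sph/sph libraries, against 162, 191 and 142 CPM in WT libraries. The saline genotypes do not overlap, sph/sph being the lower, but the treated genotypes do, because the C library of sph/sph lies at the level of saline libraries. The log2 fold was -0.95 ± 0.41 for the WT response (edgeR adjusted p = 0.0905) and -0.92 ± 0.41 for the sph/sph response (edgeR adjusted p = 0.234). Without sph/sph anti-CD40 C, Mylip was called lower in the WT response (-0.98, edgeR adjusted p = 0.0115), in the sph/sph response (-1.62, edgeR adjusted p = 0.00816) and in sph/sph against WT under anti-CD40 (-1.07, edgeR adjusted p = 0.0267).

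Srebf1 (ENSMUSG00000020538, chr11:60199089-60222581, reverse strand) kept a narrow range. Under anti-CD40 it had 99.1, 104 and 95.3 CPM in sph/sph libraries, against 74.1, 103 and 70.1 CPM in WT libraries. Under saline it had 128, 143 and 145 CPM in sph/sph libraries, against 105, 83.1 and 66.4 CPM in WT libraries. The sph/sph saline libraries are the highest of the 12, and the other groups overlap. The saline difference of genotypes, 0.71 ± 0.19, did not pass (edgeR adjusted p = 0.101), although DESeq2 called it (adjusted p = 0.0312). Its WT response was -0.04 ± 0.19 (edgeR adjusted p = 0.876) and its sph/sph response -0.48 ± 0.19 (edgeR adjusted p = 0.189). Rai1 overlaps Srebf1 on the other strand and had group means of 26.6 to 38.7 CPM, so part of the Srebf1 counts is uncertain if the counting ignored strand.

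Vldlr, a receptor for triglyceride-rich lipoproteins (ENSMUSG00000024924, chr19:27216484-27254231, forward strand), was near the limit of detection. With anti-CD40 it had 19, 44 and 45 reads in sph/sph libraries A, B and C, against 0, 2 and 0 reads in WT libraries. With saline it had 25, 28 and 5 reads in sph/sph libraries, against 10, 0 and 0 reads in WT libraries. Every sph/sph library held reads, and 4 of the 6 WT libraries held 0. With 108 reads against 2, the rate in sph/sph anti-CD40 was 63.1 times that in WT anti-CD40 (exact 95% interval 17.1 to 528, counting error only). edgeR called this difference (adjusted p = 0.0288), but not without WT anti-CD40 A, B or C or sph/sph anti-CD40 B in turn (edgeR adjusted p = 0.0623 to 0.108), nor without the libraries lacking Y-linked counts (edgeR adjusted p = 0.0767). The saline difference did not pass (edgeR adjusted p = 0.453).

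**Figure D3:**
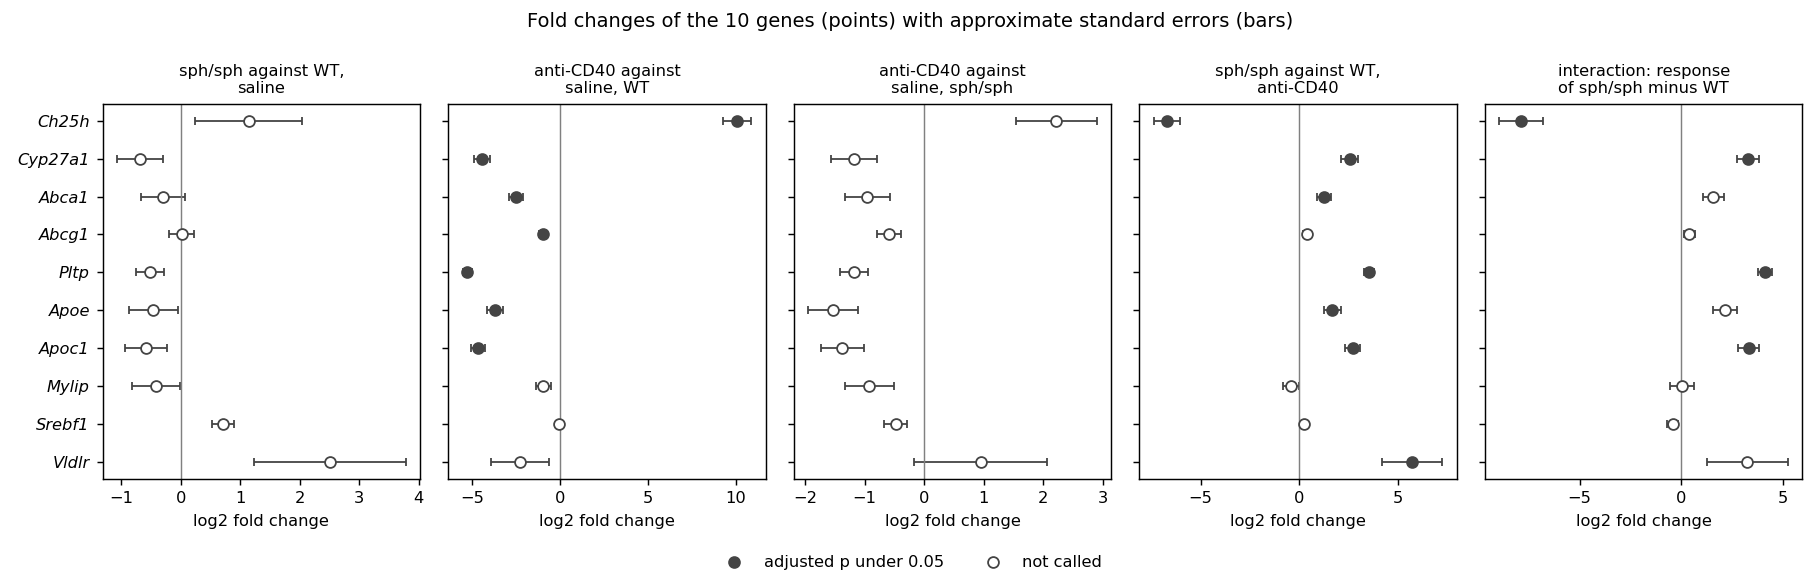
Log2 fold changes of the 10 genes in edgeR (points) with approximate standard errors (bars) for the 4 comparisons and the difference of responses; filled points have an adjusted p under 0.05, and each panel has its own axis. Ch25h and Pltp lie on opposite sides of 0 in the WT response (10.08 and -5.27), and no point is filled in the panels for sph/sph under anti-CD40 against saline and for the genotypes under saline.

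Of the 11 genes of the oxysterol list, 9 were tested. In the WT response Ch25h and Gpr183 rose and Cyp27a1 and Cyp7a1 fell, 2 of 9 in each direction, which is near the 19.4% and 19.7% of all genes. Gpr183, the receptor through which cells migrate towards oxysterols derived from 25-hydroxycholesterol, rose in WT by 2.68 ± 0.69 (edgeR adjusted p = 0.0121), which was not called without the libraries lacking Y-linked counts (edgeR adjusted p = 0.0947). Gpr183 also rose in sph/sph by 4.38 ± 0.75 (edgeR adjusted p = 0.0371), a call that was lost in 12 of 19 alternatives, and its difference of responses did not pass (edgeR adjusted p = 0.376). It had 17.6 ± 17.2 CPM in sph/sph anti-CD40, 14.2 ± 3.44 in WT anti-CD40, 0.842 ± 0.340 in sph/sph saline and 2.21 ± 1.11 in WT saline (SD, n = 3 each). The sph/sph anti-CD40 libraries ranged from 5.10 to 37.2 CPM, against 10.4 to 17.0 CPM in the WT anti-CD40 libraries. Cyp7b1, which clears 25- and 27-hydroxycholesterol, had group means of 2.34 to 4.99 CPM and no call. Cyp7a1, the hepatocyte enzyme that starts bile acid synthesis, fell in the WT response by 4.60 ± 1.45 (edgeR adjusted p = 0.0297), with 0.117 ± 0.124 CPM in WT anti-CD40 against 3.19 ± 3.04 CPM in WT saline, and 7 of 18 alternatives lost the call.

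Of the 2 LXR genes, Nr1h3 fell in the WT response and Nr1h2 was not called (log2 fold 0.08, edgeR adjusted p = 0.697). Nr1h3 had 652 ± 302 CPM in sph/sph anti-CD40, 201 ± 111 in WT anti-CD40, 627 ± 57.5 in sph/sph saline and 679 ± 136 in WT saline (SD, n = 3 each). Its WT response was a fall of 1.75 ± 0.44 (edgeR adjusted p = 0.0104), and under anti-CD40 it was higher in sph/sph by 1.69 ± 0.43 (edgeR adjusted p = 0.0235), which 5 of 19 alternatives did not call. The partner receptor Rxra had 401 ± 90.6 CPM in sph/sph anti-CD40, 114 ± 24.4 in WT anti-CD40, 769 ± 39.5 in sph/sph saline and 788 ± 49.3 in WT saline. Rxra fell in WT by 2.79 ± 0.23 (edgeR adjusted p = 2.5e-05) and its responses differed by 1.85 ± 0.30 (edgeR adjusted p = 0.00847), which was not called without the libraries lacking Y-linked counts (edgeR adjusted p = 0.0649). Nr1h2, the LXR found in most tissues, had group means of 93.3 to 110 CPM and passed in no comparison. Of the 9 receptors and corepressors tested, 4 fell in the WT response (19.7% of all genes), with Rxrb (-1.13 ± 0.20) and Gps2 (-0.48 ± 0.13) as the others. Under anti-CD40, 3 were higher in sph/sph (11.5% of all genes). The Gps2 call was lost in 2 of 19 alternatives in the WT response and in 17 of 19 under anti-CD40.

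Of 18 other LXR targets tested, 7 fell and 1 rose in the WT response, where 19.7% and 19.4% of all genes did. Under anti-CD40, 8 were higher and 1 lower in sph/sph than in WT, where 11.5% and 6.19% of all genes were. Cd5l, a secreted protein of Kupffer cells and other tissue macrophages, had 8263 ± 1498 CPM in sph/sph anti-CD40, 153 ± 80.5 in WT anti-CD40, 13942 ± 2842 in sph/sph saline and 11401 ± 1383 in WT saline (SD, n = 3 each). It fell in WT by 6.22 ± 0.46 (edgeR adjusted p = 1.57e-05), and its difference of responses, 5.46 ± 0.55, was called in all 18 alternatives (edgeR adjusted p = 0.000538). Smpdl3a, a phosphodiesterase, fell in WT by 3.01 ± 0.35 (edgeR adjusted p = 0.000167). Mertk, a receptor for dying cells, fell in WT by 1.83 ± 0.28 and Scd1, a fatty acid desaturase, by 1.99 ± 0.60; the Scd1 call was lost in 4 of 19 alternatives. Tgm2, a transglutaminase, rose by 1.15 ± 0.41, a call lost in 14 of 19 alternatives. Lpl, lipoprotein lipase, passed under saline: it had 2342 ± 70.6 CPM in sph/sph saline against 773 ± 151 CPM in WT saline (log2 fold 1.60 ± 0.33, edgeR adjusted p = 0.0354), a call lost in 9 of 19 alternatives. Under anti-CD40 Lpl was higher in sph/sph by 2.10 ± 0.33 (edgeR adjusted p = 0.0023) and Scd2, another desaturase, by 1.91 ± 0.42 (edgeR adjusted p = 0.0123), whereas Arl4c was lower by 1.27 ± 0.26 on the log2 scale (edgeR adjusted p = 0.00928). The Scd2 call was lost in 3 and the Arl4c call in 2 of 19 alternatives, the fit without the libraries lacking Y-linked counts among them (highest edgeR adjusted p = 0.107 for Scd2 and 0.0954 for Arl4c).

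Of 18 genes of cholesterol uptake, storage and lysosomal release, 5 rose and 7 fell in the WT response. Over all genes 19.4% rose and 19.7% fell. Lrp8, a lipoprotein receptor related to Vldlr, had 16.7 ± 8.94 CPM in sph/sph anti-CD40, 21.9 ± 4.13 in WT anti-CD40, 3.78 ± 0.770 in sph/sph saline and 0.248 ± 0.0741 in WT saline (SD, n = 3 each). It rose in WT by 6.42 ± 0.54 (edgeR adjusted p = 2.99e-05), was higher in sph/sph under saline by 3.88 ± 0.51 (edgeR adjusted p = 0.00541), and its difference of responses was -4.28 ± 0.65 (edgeR adjusted p = 0.00574). The last 2 calls of Lrp8 were lost with limma-voom and without the libraries lacking Y-linked counts, with adjusted p of up to 0.194 under saline and 0.1002 for the difference of responses. The WT saline level of Lrp8, which enters all of these results, rests on 13 reads over 3 libraries. Soat2, a cholesterol esterifier, rose in WT by 2.06 ± 0.42. Lrp1, a large endocytic receptor, fell by 2.80 ± 0.42, Scarb1, the receptor for high-density lipoprotein, by 2.32 ± 0.18, and Soat1, the main cholesterol esterifier of macrophages, by 1.81 ± 0.25. Under anti-CD40, 8 of the 18 were higher in sph/sph than in WT and 0 were lower, where 11.5% and 6.19% of all genes were. Among the higher were Scarb1 (2.02 ± 0.18), Lrp1 (2.00 ± 0.41), Lipa (1.75 ± 0.24), Nceh1, a cholesteryl ester hydrolase (1.43 ± 0.17), and Soat1 (1.14 ± 0.24). The calls of Lrp1 and Soat1 were lost in 1 and 2 of 19 alternatives.

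In the sterol-sensing SREBP2 arm, 3 of 8 genes rose and 3 fell in the WT response, where 19.4% and 19.7% of all genes did. Among those that rose were Sqle, an enzyme of cholesterol synthesis, by 1.96 ± 0.43, and Srebf2, the transcription factor of the pathway, by 0.66 ± 0.22. The 3 that fell were Scap, the escort of SREBP, by 0.72 ± 0.17, and its proteases Mbtps2 by 0.58 ± 0.15 and Mbtps1 by 0.38 ± 0.13. The calls of Srebf2, Mbtps1 and Scap were lost in 10, 12 and 1 of 19 alternatives. Under saline Sqle was higher in sph/sph (2.09 ± 0.43, edgeR adjusted p = 0.0354), a call lost in 10 of 19 alternatives.

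**Figure D4:**
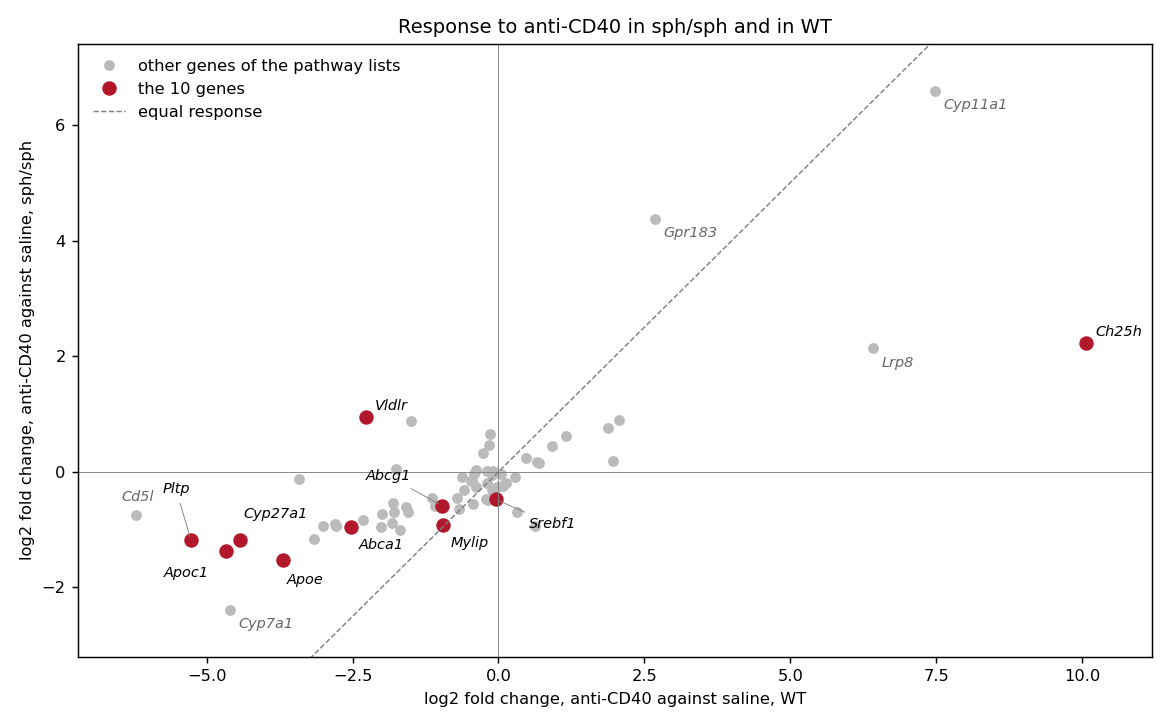
Log2 fold change of anti-CD40 against saline in sph/sph (vertical axis) against that in WT (horizontal axis) for the 10 genes (red) and the other tested genes of the pathway lists (grey); the dashed line marks equal responses. Ch25h lies at 2.22 in sph/sph and 10.08 in WT, Pltp at -1.18 in sph/sph and -5.27 in WT, and Mylip, Abcg1 and Srebf1 lie near the line.

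Across the 12 libraries, Cyp27a1, Abca1, Pltp, Apoe and Apoc1 moved together, with Pearson correlations of log2 CPM from 0.910 to 0.985 between them. Ch25h ran against them, from -0.875 with Abca1 to -0.982 with Pltp. Abcg1 correlated with the same 5 genes somewhat less closely, at 0.82 to 0.89, and with Ch25h at -0.84. Mylip, Srebf1 and Vldlr correlated with these 5 genes at 0.170 to 0.727. These correlations are over groups that differ in treatment, genotype and cell markers, so they describe the shared pattern of the 4 groups. The genes whose pattern was most like that of Ch25h were Olr1 (r = 0.991), Tiprl, Rtn4rl2, Tpm4 and Mxd1 (r = 0.972). Olr1, a scavenger receptor for oxidized lipoprotein, had 2.26 ± 1.07 CPM in sph/sph anti-CD40, 71.7 ± 26.5 in WT anti-CD40, 0.576 ± 0.558 in sph/sph saline and 0.156 ± 0.0881 in WT saline (SD, n = 3 each). For Pltp they were Lilra5 (r = 0.997), Ctsf, Cd300ld, Gm44861 and Folr2 (r = 0.993), the last of which is in the Kupffer cell list. For Abca1 they were Sbf2 (r = 0.984), Mavs, Pde8a, Spg20 and Wbp1l (r = 0.977).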

How the data were processed

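RNA from 12 bead-enriched cell preparations, 4 groups of 3, was sequenced in bulk. The authors deposited raw read counts per gene, 1 column per library, as whole numbers with no normalization that the values show. The submitters' processing notes name STAR 2.7.0e, SAMtools 1.9, featureCounts and genome build GRCm38.p5. The annotation release, the strand setting of the counting and the treatment of multiply mapped reads are not named in the labels, headers or notes. A stranded TruSeq kit was used per the labels' protocols. Columns name treatment and genotype but no replicate number, so letters A to C follow column order, and libraries were not paired. The design text counts 3 mice per group, so libraries are taken as separate animals.

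Symbols were matched for 25587 of 25700 identifiers. Coordinates and exon lengths are from GENCODE M21 (GRCm38), counted from 1. With edgeR 4.0.16 in R 4.3.3, filterByExpr kept 13844 genes, TMM factors were computed, and the 12 libraries were fitted together (robust quasi-likelihood, 1 mean per group) and tested by F tests at a Benjamini-Hochberg adjusted p under 0.05 over all genes. SE is approximate: the size of the log2 fold over the root of its F statistic. The common biological coefficient of variation was 0.382. The 10 genes and the lists were chosen with earlier results of these data known. Outside the 10 genes, called list genes are named by size, up to 4 per list and direction, besides 7 receptors, enzymes and regulators chosen for their role; some of these genes are not reported here; the 5 genes most like Ch25h, Pltp and Abca1 are those with the highest Pearson correlation of log2 CPM with a prior count of 2. Genes named outside this rule are chromosomal neighbours, overlapping genes and Adgre1. Scripts were tested on simulated counts. Alternatives were RLE factors, DESeq2 1.42.0, limma-voom (limma 3.58.1), no filter, only the groups compared, a term for sex and leaving out each library; the fit without libraries lacking Y-linked counts was chosen after seeing the data.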

Additional observations from a re-analysis of the deposited data

Results flagged for a closer look

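For 4 of the 10 genes the response to anti-CD40 differed between the genotypes by the interaction test of edgeR. The difference, sph/sph response minus WT response on the log2 scale, was -7.86 ± 1.08 (SE) for Ch25h, 3.26 ± 0.56 for Cyp27a1, 4.09 ± 0.35 for Pltp and 3.30 ± 0.52 for Apoc1. For Ch25h the response was 2.22 in sph/sph and 10.08 in WT, and for Pltp it was -1.18 in sph/sph and -5.27 in WT. With a Kupffer cell marker sum of 14176 to 28583 CPM in sph/sph anti-CD40 and 417 to 908 CPM in WT anti-CD40, markers of these cells moved with the same difference, and their part in it was not tested. Without the 4 libraries that lacked Y-linked counts the call held for Pltp (edgeR adjusted p = 0.00718) and was lost for Ch25h (0.0647), Cyp27a1 (0.0722) and Apoc1 (0.0699).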

How the results depend on the processing

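No paired analysis was possible because the columns of the table carry no replicate number, and the ID numbers in their headers are shared by 1 library per genotype within a treatment. For genotype under saline, DESeq2 called 1 member higher and a fit of those groups alone called 1 lower, against 0 and 0. In the sph/sph response DESeq2 called 1 higher and 4 lower, against 0 and 0. For genotype under anti-CD40 a fit of those groups alone called 3 higher, against 6. The interaction without the libraries lacking Y-linked counts, chosen after seeing the data, called 1 higher and 0 lower, against 3 and 1; that fit has 2 libraries per group. Leaving out each library in turn, members called higher and lower ranged from 0 to 0 and 0 to 1 for genotype under saline, from 1 to 1 and 6 to 7 for the WT response, from 0 to 0 and 0 to 5 for the sph/sph response, from 3 to 6 and 1 to 2 for genotype under anti-CD40, and from 3 to 4 and 1 to 1 for the interaction; the lowest of 3 came without WT anti-CD40 B and the highest of 5 without sph/sph anti-CD40 C. Over all genes, calls higher and lower for genotype under saline were 561 and 254 with DESeq2, 533 and 358 in the fit of its groups alone and 13 and 0 without the libraries lacking Y-linked counts, against 222 and 60. For the sph/sph response they were 703 and 605 with DESeq2, 31 and 33 with limma-voom, 0 and 0 in the fit of its groups alone (2056 at an unadjusted p under 0.05) and up to 1382 and 990 without sph/sph anti-CD40 C, against 80 and 28. For genotype under anti-CD40 they were 494 and 241 in the fit of its groups alone, against 1598 and 857. For the interaction they were 805 and 556 with DESeq2 and 135 and 18 without the libraries lacking Y-linked counts, against 440 and 155. The log2 fold changed sign for 6 results, none of them called in the main edgeR fit of all 12 libraries. Among them, Mylip for genotype under anti-CD40 was called lower without sph/sph anti-CD40 C. Abcg1 under saline was -0.000408 with no filter and -0.000909 in the fit of its groups alone, and ranged from -0.0894 to 0.138 when 1 library was left out. Srebf1 in the WT response was 0.21 without the libraries lacking Y-linked counts and ranged from -0.262 to 0.137 when 1 library was left out. Vldlr in the WT response was 3.05 without those libraries and ranged from -4.86 to 2.57, the highest without WT saline A, when 1 library was left out; its interaction was -1.51 without the libraries lacking Y-linked counts and from -1.62, without WT saline A, to 5.80. Mylip was 0.22 without those libraries for genotype under anti-CD40, and its interaction was -0.0130 with RLE factors, -0.0170 with DESeq2, -0.103 with limma-voom and between -0.645 and 0.357 when 1 library was left out. The cause was not tested. At 2 to 3 libraries per group and a coefficient of variation of 0.382, a p that misses the threshold does not show equal levels. Vldlr, saline Ch25h, Lrp8 in WT saline (13 reads) and Cyp7a1 in WT anti-CD40 (7 reads) rest on few reads. Letters follow column order, the A libraries share the lack of Y-linked counts, labels and headers differ on the control genotype, and cell marker sums differed between groups.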
